A study of Mus musculus with 4 samples.

Results

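The difference between Dclk1+ and Dclk1- cells of the mouse small intestine was compared between tumors and normal epithelium, gene by gene. The quantity described is the change of the Dclk1+ contrast, that is, the Dclk1+ minus Dclk1- difference in tumor less the same difference in normal epithelium, on the log2 scale. A positive value marks a gene that stood higher in Dclk1+ cells, relative to Dclk1- cells, in tumor than in normal epithelium, and a negative value marks the opposite. Of 23473 probes on the array, 16631 carried a gene symbol, and 13635 of these were brighter than the mean of the blank spots plus 2 SD on at least 1 array. They gave 13465 genes of 16390, and 9635 of these were above background on all 4 arrays. For 2305 genes the spots below background left neither the size nor a bound of the change.

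Each group was 1 array. Dclk1- tumor cells came from intestinal tumors of 1 Dclk1CreERT2/+; ApcMin/+ mouse aged 17 weeks, and Dclk1+ tumor cells were pooled from the tumors of 7 such mice aged more than 16 weeks. Dclk1- normal cells came from the small intestine of 1 Dclk1CreERT2/+ mouse, and Dclk1+ normal cells were pooled from 2 Dclk1CreERT2/+ mice, all aged 26 weeks. All mice were male, and all carried the CreERT2 allele at Dclk1 on 1 chromosome, the controls included, while ApcMin was carried only by the tumor-bearing mice. The labels state that GFP-expressing cells were sorted to obtain Dclk1+ tumor cells, and for the other 3 samples the labels give no gate. Tumor and normal samples thus differed in genotype, age and array at once, and the Dclk1+ samples also in number of mice, and these cannot be told apart. Within each tissue the Dclk1+ and Dclk1- samples differed in number of mice and array, and in tumor also in stated age. Each contrast therefore mixes cell type with these differences. No group had a replicate, so nothing was tested, and the precision is limited by the number of arrays.

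Tuft cells of the gut, marked by the doublecortin-like kinase Dclk1, are rare epithelial cells that sense luminal compounds through a taste-type cascade of G protein, phospholipase C and the Trpm5 channel. They make interleukin 25 and lipid mediators such as leukotrienes and prostaglandins. ApcMin is a truncating allele of Apc, a brake on Wnt signalling, and adenomas of these mice arise from epithelium that has lost Apc function. The neighbours of tuft cells are absorptive enterocytes, mucus-making goblet cells, antimicrobial Paneth cells and hormone-making enteroendocrine cells.

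The cell-type contrast was smaller in tumor for most genes that had a large one in normal epithelium. In normal epithelium 206 genes (1.53% of those measured) were 4-fold or more higher in Dclk1+ cells and 277 (2.06%) were 4-fold or more lower. In tumor the numbers were 52 (0.386%) and 36 (0.267%). At 2-fold, 726 genes (5.39%) were higher and 761 (5.65%) lower in normal, against 215 (1.6%) and 261 (1.94%) in tumor. Across the 13465 genes the tumor contrast followed the normal contrast with a slope through the origin of 0.338 and a Pearson r of 0.614. The SD over genes was 0.434 log2 for the tumor contrast and 0.786 log2 for the normal contrast. Genes are not independent replicates, so these are descriptions.

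Of the 206 genes higher in Dclk1+ normal cells, 200 had a smaller contrast in tumor, 47 were still 4-fold higher, and 0 were 2-fold or more the other way. Their median share of the normal contrast kept in tumor was 40.0%, with quartiles of 26.8% and 57.3%. All 277 genes that were 4-fold lower in Dclk1+ normal cells had a smaller contrast in tumor, 30 were still 4-fold lower, and the median share kept was 25.3%. Genes picked for a large value on one pair of arrays tend to be smaller on another, so the same was read from the tumor side. There, 41 of the 52 genes higher and 30 of the 36 genes lower in Dclk1+ tumor cells had a larger contrast in normal epithelium.

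**Figure D1:**
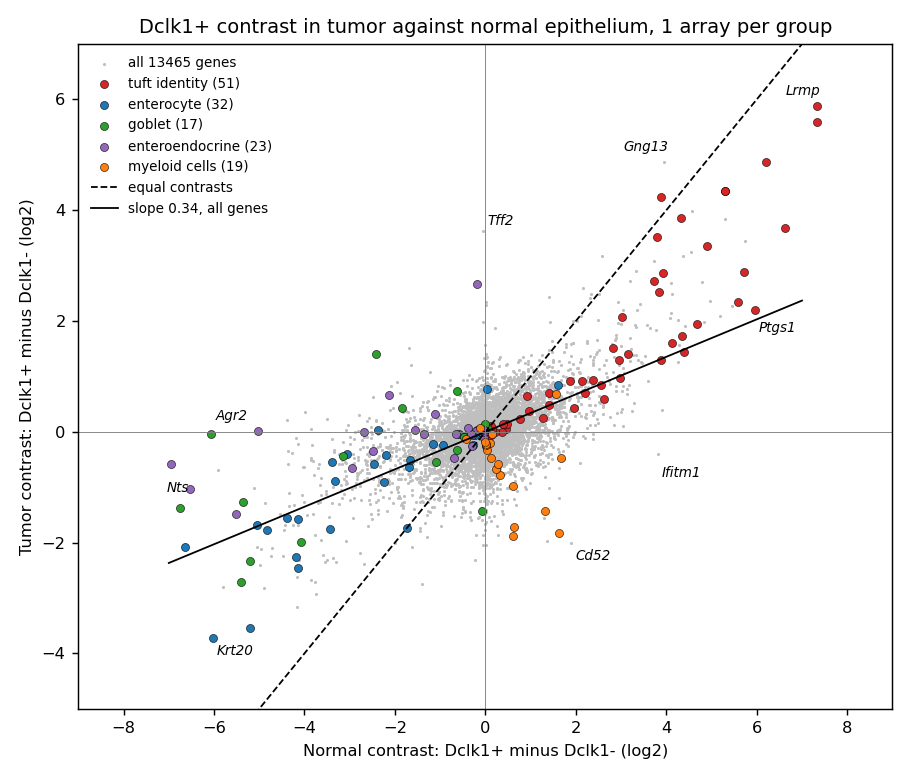
Dclk1+ minus Dclk1- difference in tumor (vertical axis, log2) against the same difference in normal epithelium (horizontal axis, log2) for 13465 genes, with members of 5 gene lists coloured and each point 1 gene. Most points with a large normal contrast lie between the horizontal axis and the dashed line of equal contrasts, near the solid line of slope 0.338, and tuft genes lie nearer to equality than goblet and enteroendocrine genes.

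The slope depended on brightness. With genes split into 3 equal groups by mean level, it was 0.159 in the dimmest, 0.242 in the middle and 0.350 in the brightest group. Over the 1172 genes with a log2 level of 9 or more on at least 1 array of each pair, a restriction chosen after seeing the data, it was 0.422. The tumor arrays also had a higher local background around bright spots, with a median ratio of local background to spot of 0.593 in Dclk1- tumor and 0.478 in Dclk1+ tumor against 0.254 and 0.228 in the normal samples. When each spot's local background was subtracted, the slope was 0.280.

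A change of contrast of 4-fold or more was positive in 183 genes (1.36%) and negative in 83 (0.616%), while at 2-fold it was positive in 597 (4.43%) and negative in 595 (4.42%). The 4-fold split depended on the scaling between arrays. Quantile normalization put 68.8% of the 4-fold changes on the positive side, median scaling 58.0% (167 positive and 121 negative genes) and scaling to the 75th percentile 59.9% (170 and 114). The median change over all genes was -0.01 log2. These counts, and those of lists, use the fitted values, dim genes included. The size was measured, or bounded past the same threshold, in 174 of the 183 and 77 of the 83 genes, and at 2-fold in 567 of the 597 and 559 of the 595. Among the lists below this takes 2 positive genes from the enteroendocrine list, 1 each from the enterocyte, proximal and distal lists, and the 1 negative gene from the goblet list. It takes 1 of the 2 negative genes from the Wnt targets. Of the 183 positive genes, 166 had been 4-fold or more lower in Dclk1+ normal cells, and of the 83 negative genes, 62 had been 4-fold or more higher there.

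Because the change of contrast is the tumor minus normal difference of Dclk1+ cells less that of Dclk1- cells, each change can be traced to the arrays that moved. Among the 183 positive genes, the Dclk1- arrays gave 75% or more of the change in 100, the Dclk1+ arrays in 42, and both gave 25 to 75% in 41. Among the 83 negative genes the numbers were 26, 26 and 31. In bulk samples, fewer cells of a type and less RNA per cell cannot be told apart.

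**Figure D2:**
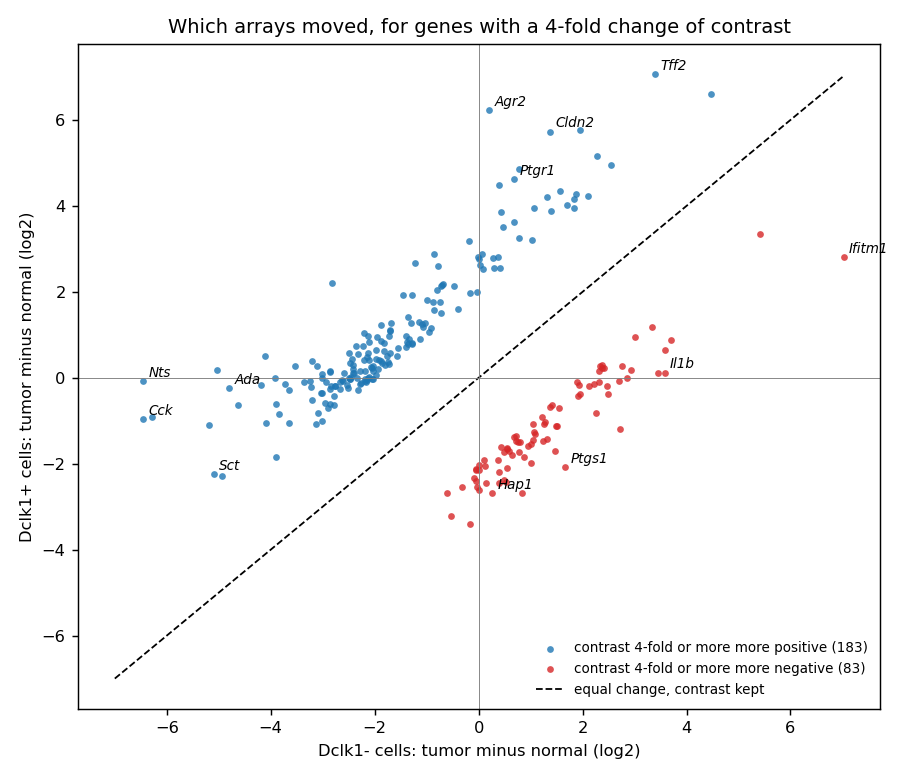
Tumor minus normal difference of Dclk1+ cells (vertical axis, log2) against that of Dclk1- cells (horizontal axis, log2) for the 183 genes with a positive and the 83 with a negative 4-fold change of contrast, each point 1 gene. Nts and Cck lie far to the left, where Dclk1- cells had less of the transcript in tumor, Agr2 and Cldn2 lie near the top, where Dclk1+ cells had more of it, and Ifitm1 lies far to the right.

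Some of the positive genes named below formed a group low in both tumor samples, and others a group high in both. The sizes of these groups were not counted. Sequence upstream of the start is shown for members of each group, from RefSeq on GRCm38.p6, as the 120 bases before the start of the gene's first listed promoter, 5′ to 3′ on the gene's strand. Nts (chr10:102490419-102490538, minus strand) and Gip (chr11:96024425-96024544, plus strand) belong to the first group. Agr2 (chr12:35992805-35992924, plus strand), Cldn2 (chrX:139800688-139800807, plus strand) and Mmp7 (chr9:7691970-7692089, plus strand) belong to the other. Capitals mark exact matches to the TATA box letters TATAAA or to the TCF/LEF letters CTTTGAT, the factors through which Wnt signalling acts, searched on both strands.
Nts: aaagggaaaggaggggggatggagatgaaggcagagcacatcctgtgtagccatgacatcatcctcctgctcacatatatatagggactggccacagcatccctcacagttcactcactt
Gip: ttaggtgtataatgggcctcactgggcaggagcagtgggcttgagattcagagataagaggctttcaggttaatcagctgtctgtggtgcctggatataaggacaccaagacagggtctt
Agr2: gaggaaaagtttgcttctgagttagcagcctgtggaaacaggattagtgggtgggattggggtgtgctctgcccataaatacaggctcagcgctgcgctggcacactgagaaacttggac
Cldn2: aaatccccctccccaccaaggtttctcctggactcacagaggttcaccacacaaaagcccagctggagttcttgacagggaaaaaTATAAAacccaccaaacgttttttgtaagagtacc
Mmp7: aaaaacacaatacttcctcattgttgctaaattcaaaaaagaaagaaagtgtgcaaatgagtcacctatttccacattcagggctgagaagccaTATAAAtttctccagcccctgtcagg
The TATAAA match began 35 bases before the start in Cldn2 and 26 bases before it in Mmp7. None of the 5 windows held CTTTGAT. Of 32851 mouse promoters, 6.34% held TATAAA and 1.43% held CTTTGAT in the same 120 bases, and a match is a description of the letters only.

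The first group was led by enteroendocrine genes. Nts, which encodes the gut hormone neurotensin, had log2 levels of 6.36 and 5.78 in the Dclk1- and Dclk1+ samples of tumor, and of 12.81 and 5.86 in those of normal epithelium. Cck, for cholecystokinin, had 7.25, 6.22, 13.71 and 7.17 in the same order, which is kept below. Both were bright only in Dclk1- normal cells, and the lowest level that counted as above background lay between 5.76 and 5.80 on the 4 arrays. The contrast of Nts went from -6.96 in normal to -0.58 in tumor, a change of 6.37, the largest positive change among genes above background on all 4 arrays. The Cck contrast changed by 5.51, from -6.54 to -1.03. These tumor contrasts of dim spots are compressed by the offset of 50 added to each signal.

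Pyy, the hormone peptide YY of the distal gut, was 7.91, 7.92, 10.73 and 5.71, and was not above background in Dclk1+ normal. Its contrast was therefore at least 31.5-fold more positive in tumor, where a bound puts the lowest signal above background in place of the missing one. Gip, an incretin hormone of the proximal gut, had levels of 7.48, 5.99, 12.12 and 6.62 and a change of 4.01. Of 23 enteroendocrine genes above background, 12 changed 2-fold or more in the positive direction and 0 in the negative direction. The list's median contrast was -0.69 in normal and -0.03 in tumor, its median change was 1.32, and its slope of tumor on normal contrast was 0.111. The median tumor minus normal difference was -1.16 in Dclk1- cells and -0.03 in Dclk1+ cells. The defining marker Chga, for chromogranin A, was above background only in Dclk1- normal cells.

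Sct, for secretin, was the 1 enteroendocrine gene higher in Dclk1+ cells of tumor by 2-fold or more. Its levels were 6.93, 9.60, 12.03 and 11.85. It was bright in both normal samples, lower in both tumor samples, and lowest in Dclk1- tumor. The contrast went from -0.18 to 2.67, as the level was lower in tumor by more in Dclk1- than in Dclk1+ cells.

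Enterocyte genes also changed mainly in the positive direction, though several stayed bright in Dclk1- tumor cells. Of 32 members above background, 19 had a change of 2-fold or more in the positive direction and 0 in the negative direction, and 29 had a smaller contrast in tumor, as did 8089 of all 13465 genes. The median contrast was -2.22 in normal and -0.52 in tumor, with a median change of 1.49 and a slope of 0.417. The median tumor minus normal difference was -1.29 in Dclk1- cells and -0.10 in Dclk1+ cells. Ada, adenosine deaminase, had levels of 9.75, 7.66, 14.55 and 7.90 and a change of 4.56. Apoc3, an apolipoprotein of lipid particles, had 8.94, 7.17, 13.04 and 8.22 and a change of 3.05. Both were bright in Dclk1- normal cells and intermediate in Dclk1- tumor cells.

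Other enterocyte genes kept a large contrast in the main processing. Krt20, a keratin of differentiated surface cells, had levels of 12.36, 8.64, 14.39 and 8.36, so that its contrast was -3.72 in tumor and -6.03 in normal. Its change of 2.31 was 1.13 with the mean of its probes. Apoa4, an apolipoprotein of fat absorption, had 9.76, 6.21, 11.63 and 6.43, with contrasts of -3.54 and -5.20. In both genes the Dclk1- sample was the brighter one in each tissue at these levels. With the local background subtracted, the Apoa4 contrast was 0.17 in tumor and -3.05 in normal, so it was not kept there. For Krt20 the values were -2.80 and -5.69. Fabp2, a fatty acid carrier and defining marker, was at 12.78, 10.52, 14.74 and 10.55, with a change of 1.93, and was thus well above background in the Dclk1+ samples too. In Mogat2, an enzyme of triglyceride synthesis, the Dclk1+ level was higher in tumor (10.60) than in normal (8.45), and the change was 2.85. The Dclk1+ level of Krt20 was higher in tumor by less, and those of Apoa4 and Fabp2 were not higher.

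Genes of the proximal and distal small intestine shared the pattern. Of 11 proximal genes above background, 8 changed 2-fold or more in the positive direction and 0 in the negative, with median contrasts of -1.37 in normal and -0.02 in tumor. Of 12 distal genes, 5 did so and 0 in the other direction, with medians of -3.53 and -1.04. Slc51a, a subunit of the basolateral bile acid transporter, had levels of 10.08, 7.83, 11.63 and 7.15 and kept a contrast of -2.25 of -4.48. With the local background subtracted, its contrast was 0.46 in tumor and -4.39 in normal, so it was not kept there. S100g, a calcium-binding protein of calcium uptake, had 14.34, 13.01, 12.06 and 7.84 and a change of 2.89. It was brighter in both tumor samples than in the normal ones. The labels do not say from which stretch of the intestine each sample came.

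Among goblet genes with a positive change, some had a lower Dclk1- level in tumor and others a higher Dclk1+ level. Of 17 members above background, 10 changed 2-fold or more in the positive direction and 1 in the negative direction, with a median contrast of -1.85 in normal and -0.33 in tumor. The median change was 2.09 and the slope was 0.238. Clca1, a secreted mucus-processing protein, had levels of 8.16, 6.78, 14.45 and 7.69 and a change of 5.38, and was bright only in Dclk1- normal cells. The mean over all Clca1 probes gave a change of 1.93, so its probes disagree on the size. Zg16, a lectin of the mucus, had 13.11, 10.41, 15.71 and 10.30 and a change of 2.70, and was lower in Dclk1- tumor than in Dclk1- normal cells.

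In other goblet genes the Dclk1+ sample was brighter in tumor than in normal epithelium. Agr2, a disulfide isomerase of the endoplasmic reticulum that is needed for mucin folding, had levels of 12.96, 12.92, 12.75 and 6.70. It was bright on 3 arrays and low in Dclk1+ normal cells, and its contrast went from -6.06 to -0.04. Spink4, a protease inhibitor of goblet cells, had 12.84, 11.57, 12.45 and 7.09 and a change of 4.09. Ern2, the stress sensor IRE1 beta of mucous cells, had 11.15, 12.55, 9.20 and 6.78. Its contrast turned from -2.42 in normal to 1.40 in tumor. The mucin gene Muc2, a defining marker, was dimmer at 6.51, 6.94, 8.22 and 6.37, with contrasts of -1.85 and 0.43.

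**Figure D3:**
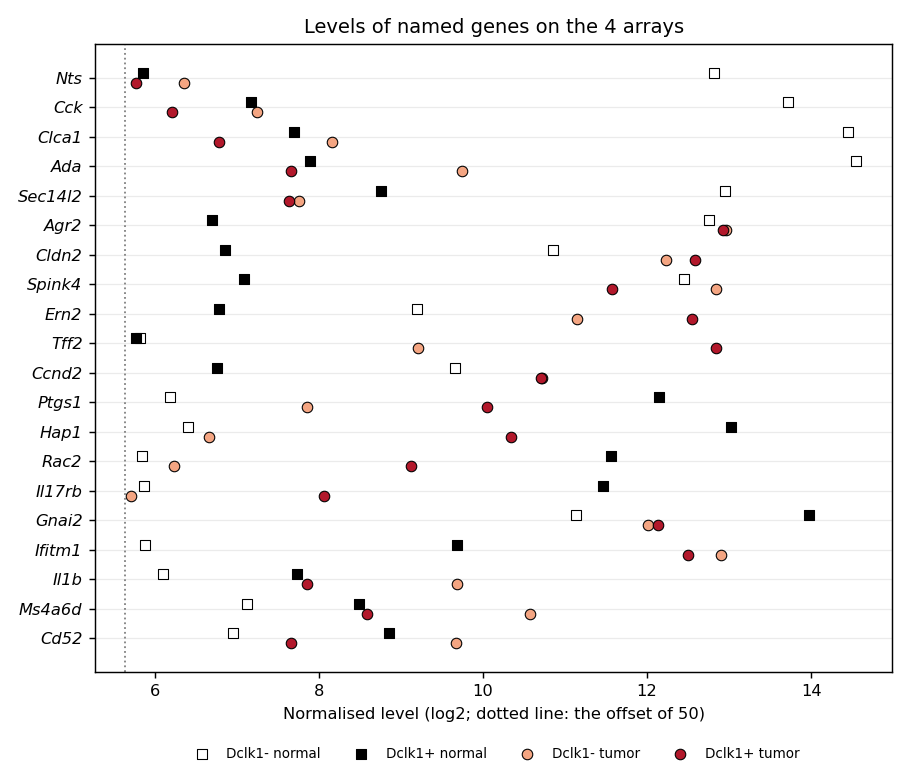
Log2 level of 20 genes on the 4 arrays (squares normal, circles tumor, open and pale symbols Dclk1-, filled and dark symbols Dclk1+), each symbol 1 array, with a dotted line at the offset of 50. The open square stands alone on the right for Nts, Cck, Clca1, Ada and Sec14l2, and the filled square stands alone on the left for Agr2, Cldn2 and Spink4.

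Among genes outside the cell-type lists, the same 2 kinds appeared. Cldn2, a pore-forming tight junction claudin, had levels of 12.23, 12.58, 10.85 and 6.85 and a change of 4.35. Ptgr1, a prostaglandin reductase, had 12.26, 12.05, 11.58 and 7.43 and a change of 3.94. Both were low only in Dclk1+ normal cells. By contrast Sec14l2, a lipid-binding protein, had 7.76, 7.64, 12.95 and 8.75 and a change of 4.08. Smarcd3, a chromatin remodelling subunit, had 6.97, 6.29, 12.01 and 6.09 and a change of 5.23. Gsdmc4 of the gasdermin family (4.60), Tmem171 (4.02) and the peroxisomal thiolase Acaa1b (3.91) likewise were bright only in Dclk1- normal cells. Cldn15, another pore-forming claudin, had 7.16, 6.58, 10.69 and 6.32, opposite to Cldn2 in tumor.

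Paneth genes were higher in Dclk1+ tumor than in Dclk1+ normal cells. Over 8 members above background the median tumor minus normal difference was 2.40 in Dclk1+ cells and 0.69 in Dclk1- cells, and 4 changed 2-fold or more in the positive direction and 0 in the negative. Median contrasts were -1.94 in normal and -0.79 in tumor, with a slope of 0.425. Reg3g, a secreted antibacterial lectin, had levels of 14.28, 12.16, 15.07 and 10.11 and a change of 2.85. Itln1, an intelectin, had 12.03, 10.53, 11.34 and 6.90 and a change of 2.94. Defa5, an alpha-defensin and defining marker, had 12.14, 9.83, 9.41 and 5.91, higher in both tumor samples, with contrasts of -2.31 and -3.50. The alpha-defensin named Defcr3 had 13.85, 12.83, 13.08 and 7.97 and a change of 4.09. Defensin probes can bind the RNA of close relatives.

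Mmp7, a metalloprotease made by Paneth cells and a Wnt target, had levels of 13.47, 13.04, 9.01 and 6.44. It was bright in both tumor samples, and its contrast went from -2.57 to -0.44. Ccnd2, a G1 cyclin and Wnt target, had 10.71, 10.71, 9.66 and 6.76 and a change of 2.89. Ephb3, an ephrin receptor that positions cells along the crypt, differed from both, with 6.82, 6.72, 9.42 and 6.80, bright only in Dclk1- normal cells and with a change of 2.53. Of 21 Wnt targets above background, 4 changed 2-fold or more in the positive and 2 in the negative direction, the median change was -0.04, and the slope was 0.036.

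Intestinal stem cell genes showed no common shift. Of 21 members, 2 were positive and 1 negative at 2-fold, with median contrasts of -0.05 in normal and 0.02 in tumor. The negative one was Hopx, a homeodomain protein of reserve stem cells, at 11.00, 11.85, 9.74 and 12.92, with a change of -2.33. Cell cycle genes had 10 of 36 members positive and 0 negative at 2-fold, with a median change of 0.45. Birc5, survivin, had levels of 10.01, 8.86, 10.75 and 7.11 and a change of 2.49. Cdc20, an activator of the anaphase-promoting complex, had 10.50, 9.98, 10.67 and 8.01 and a change of 2.14. In these 2 genes the Dclk1+ level was higher in tumor than in normal, and the Dclk1- levels lay closer together. Egr1, an immediate-early factor that dissociation of tissue can induce, was at 7.42, 7.20, 8.77 and 5.77 with a change of 2.77, and 2 of 20 immediate-early genes were positive and 0 negative at 2-fold.

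The tuft programme lost contrast but, by the slope of the main processing, kept more of it than most lists. Of 51 members above background, 49 had a smaller contrast in tumor, against 8089 of all 13465 genes. At 2-fold or more, 26 changed in the negative direction and 0 in the positive. Of the 26, 22 were measured or bounded past 2-fold. The median contrast was 2.81 in normal and 0.97 in tumor, the median change was -1.02 and the slope was 0.611. The medians alone did not set the tuft list apart, as those of the Paneth list were -1.94 and -0.79. With the local background subtracted, the slope was 0.559 for the tuft list and 0.598 for the Paneth list. In normal epithelium 36 tuft members were 2-fold or more higher in Dclk1+ cells, and in tumor 25 were. The median tumor minus normal difference was -1.39 in Dclk1+ cells and 0.00 in Dclk1- cells. At the median of the fitted values, the lost contrast thus lay in the Dclk1+ arrays. Of the 51 members, 32 were above background on all 4 arrays. Members such as Lrmp and Rac2 were near background in both Dclk1- samples, which left little room for a lower level there. The offset also compresses differences of dim spots, so the median of the Dclk1- samples is limited by dim signals.

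Ptgs1, cyclooxygenase 1, had the largest loss of the list. Its levels were 7.86, 10.06, 6.19 and 12.14, with contrasts of 2.19 in tumor and 5.95 in normal. It was lower in Dclk1+ tumor and higher in Dclk1- tumor than in the normal counterparts. Hap1, a huntingtin-associated protein, had 6.66, 10.34, 6.40 and 13.02 and a change of -2.94. Rac2, a small GTPase of blood and tuft cells, had 6.24, 9.12, 5.84 and 11.56 and a change of -2.84. Hebp1, a heme-binding protein, had 8.34, 9.78, 7.81 and 12.20 and a change of -2.96. Il17rb, a receptor subunit for interleukin 25, had 5.72, 8.06, 5.88 and 11.46 and was not above background in Dclk1- tumor, so the data bound its change at no lower than -3.32. The fitted change was -3.24, and it was -1.10 with the blank mean subtracted.

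Other tuft genes kept most of their contrast in the main processing. Lrmp, a membrane protein of the endoplasmic reticulum, had levels of 5.91, 11.80, 6.22 and 13.57, with contrasts of 5.89 in tumor and 7.34 in normal. Alox5ap, the activating protein of leukotriene synthesis, had 6.88, 12.48, 6.63 and 13.97, with 5.60 and 7.33. These 2 genes separated the Dclk1+ from the Dclk1- sample in both tissues by the widest margins of the list. Trpm5, the taste-cascade channel, had 6.05, 10.93, 6.77 and 12.98, with 4.88 and 6.21. With the blank mean subtracted and no offset, the loss was smaller for Lrmp, at -0.24 in place of -1.45, and for Trpm5, at -0.04 in place of -1.34. With the local background subtracted the loss was larger, at -1.72 for Lrmp and -2.91 for Trpm5. The Trpm5 contrast was then 1.89 in tumor and 4.79 in normal.

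The sorting gene itself was dim in the tumor samples. Dclk1 had levels of 5.95, 6.64, 7.60 and 9.01, and 9.49, 61.8, 179.8 and 736 on the linear scale of the authors' deposited table. In each pair the Dclk1+ sample had the higher level, and both tumor samples were dimmer than both normal ones. Its contrast was 0.69 in tumor and 1.41 in normal, a change of -0.72. The direction turned with the background correction, to 0.69 with the blank mean subtracted and to 0.67 in the authors' deposited table. Pou2f3, the master factor of tuft cells, was above background only in Dclk1+ normal cells.

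Within the taste-type cascade the members differed. Of 17 above background, 3 were negative and 1 positive at 2-fold, and the slope was 0.767. Gnai2, an inhibitory G protein alpha subunit, had levels of 12.01, 12.13, 11.13 and 13.98, so that a contrast of 2.85 in normal was 0.12 in tumor. With the local background subtracted, the Gnai2 contrast was 2.31 in normal and -2.75 in tumor. Gnat3, gustducin, the taste G protein, had 5.89, 6.41, 5.79 and 8.33 and a change of -2.03. Plcb2, the phospholipase of the cascade, had 6.10, 10.08, 5.87 and 10.45, with contrasts of 3.98 and 4.58. Gng13, the gamma subunit that pairs with gustducin, had 5.99, 10.86, 5.79 and 9.75 and was brighter in Dclk1+ tumor than in Dclk1+ normal cells. Its change was 0.92, but -0.87 with the blank mean subtracted.

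Of 14 eicosanoid genes above background, 4 were negative and 0 positive at 2-fold, with a slope of 0.617, and the size was measured or bounded past 2-fold in 3 of the 4. They are Ptgs1 and Alox5ap, given above, Alox5, the lipoxygenase of leukotriene synthesis, and Ltc4s, which makes leukotriene C4. Ltc4s had levels of 5.96, 8.82, 5.88 and 9.80, with contrasts of 2.86 in tumor and 3.93 in normal. Alox5 was at 5.71, 7.19, 5.73 and 8.53 and was not above background in either Dclk1- sample, so that no size of its change could be given.

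Some genes outside the tuft list lost a contrast of similar size. Cdkn1c, a cyclin-dependent kinase inhibitor, had levels of 6.72, 7.12, 5.88 and 9.79 and a change of -3.51. Camkk2, a calcium-dependent kinase kinase, had 7.81, 10.08, 6.34 and 11.78 and a change of -3.17. Zfp428, a zinc finger gene, had 9.32, 11.42, 7.05 and 12.25 and a change of -3.10. In all 3 the Dclk1+ level was lower and the Dclk1- level higher in tumor than in normal. Zfhx3, a homeobox factor, moved in the same directions, with 8.57, 8.95, 6.09 and 9.33. Its change was -2.86, or -1.79 with the mean of its probes. Nav1, a neuron navigator, differed in that both of its levels were higher in tumor. It had 9.66, 9.75, 6.07 and 9.12 and a change of -2.95. Kcnmb4, a potassium channel subunit not above background in Dclk1- normal, changed by at least 6.72-fold in the negative direction.

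**Figure D4:**
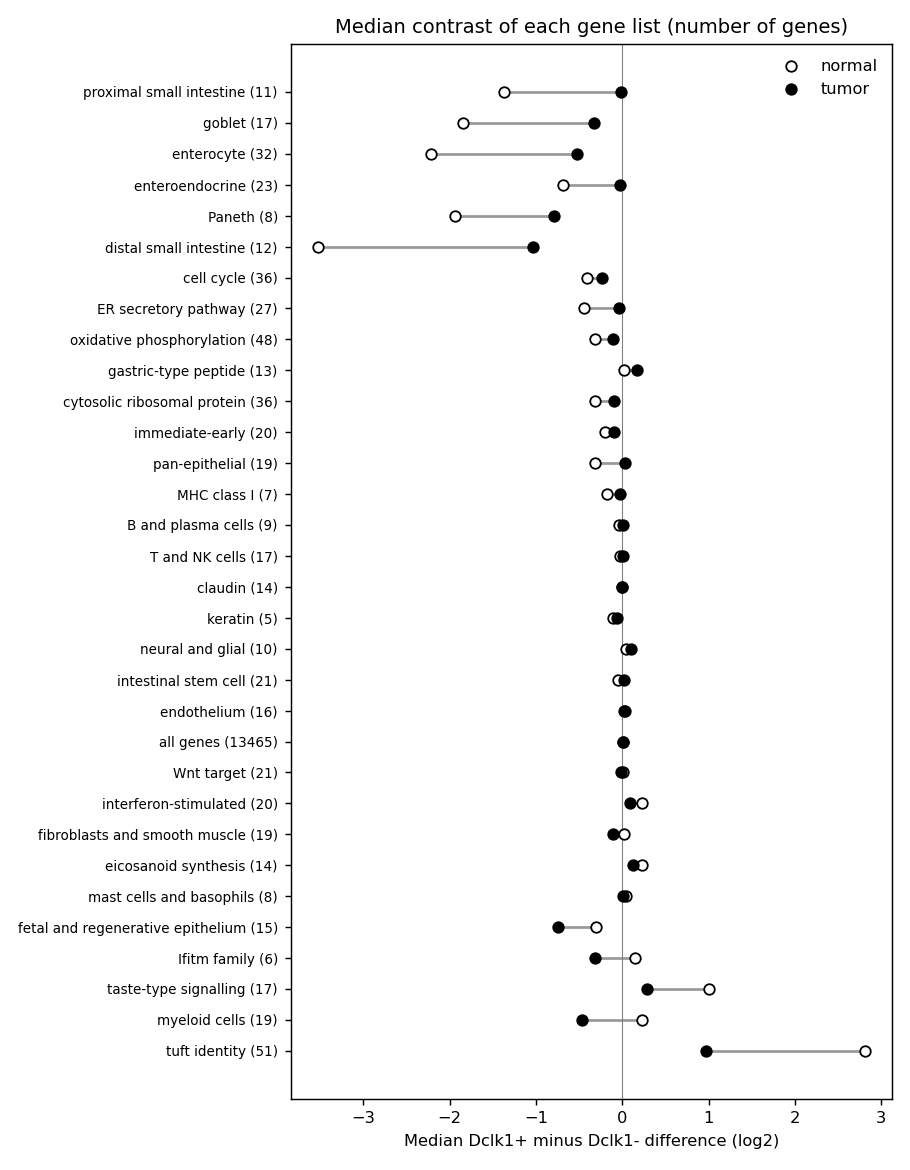
Median Dclk1+ minus Dclk1- difference (horizontal axis, log2) of each gene list with 5 or more genes above background, and of all genes, in normal epithelium (open circles) and tumor (filled circles), ordered by the median change. Goblet, enterocyte, enteroendocrine, Paneth and regional lists move from negative values towards 0, the tuft list moves from 2.81 to 0.97, and the myeloid list crosses 0.

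The most negative change of all belonged to Ifitm1, an interferon-induced transmembrane protein. Its levels were 12.91, 12.50, 5.88 and 9.69. It was bright in both tumor samples and near background in Dclk1- normal, and its contrast went from 3.81 to -0.41, a change of -4.21. Its paralog Ifitm3 had 11.42, 11.09, 8.62 and 8.15, higher in both tumor samples, with a change of 0.14. Of the 6 Ifitm genes above background, Ifitm1 was the 1 with a 2-fold change.

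Interferon-stimulated genes as a list had 2 of 20 negative and 0 positive at 2-fold and a median change of -0.09. Oas2, an antiviral oligoadenylate synthetase, had levels of 6.13, 8.15, 6.44 and 10.70, with contrasts of 2.02 and 4.26. Its relative Oas1a was higher in both Dclk1+ samples, at 10.59 in tumor and 12.70 in normal, with contrasts of 2.59 and 2.16. Among antigen presentation genes, 2 of 3 class II genes passed 2-fold, in the positive direction. H2-Aa, an MHC class II chain, had 11.09, 8.39, 13.70 and 9.93, and Cd74, the invariant chain, 7.10, 6.29, 9.41 and 6.58, with changes of 1.07 and 2.02. Ciita, the class II transactivator, changed by 0.23. None of the 7 MHC class I genes passed 2-fold, but B2m, the class I light chain, came close to H2-Aa. Its levels were 11.39, 11.31, 14.04 and 12.97 and its change was 0.99, which became -0.22 with the local background subtracted.

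The median contrast of the myeloid list was above 0 in normal and below 0 in tumor, but most members changed less than 2-fold. Of 19 members above background, 7 changed 2-fold or more in the negative direction and 0 in the positive. In normal epithelium 4 members were 2-fold or more higher in Dclk1+ cells, and in tumor 4 were 2-fold or more lower. The median contrast was 0.23 in normal and -0.47 in tumor. Il1b, interleukin 1 beta, had levels of 9.68, 7.85, 6.10 and 7.73, with contrasts of -1.83 in tumor and 1.63 in normal. C1qb, a complement chain made by macrophages, had 10.81, 9.38, 7.87 and 9.19, with -1.43 and 1.32. In both genes Dclk1- tumor was the brightest array and Dclk1- normal the dimmest, and the Dclk1+ samples lay close together. The list's median tumor minus normal difference was 0.84 in Dclk1- cells and -0.02 in Dclk1+ cells.

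The summed level of the myeloid list on the authors' linear scale was 5518 and 2517 in the Dclk1- and Dclk1+ samples of tumor, and 929.8 and 2999 in those of normal epithelium. The defining markers Ptprc, the leukocyte phosphatase CD45, and Cd68, a lysosomal protein of macrophages, were above background on all 4 arrays. Ptprc had levels of 6.05, 6.74, 5.83 and 7.39 and was brighter in the Dclk1+ sample of each pair, by 0.69 in tumor and 1.56 in normal. Cd68 was dim and nearly level, at 6.27, 6.23, 6.25 and 6.40, with contrasts of -0.03 in tumor and 0.15 in normal. Neither marker was brightest in Dclk1- tumor. The myeloid list moved with other negative changes, such as Cd52, a leukocyte surface peptide at 9.67, 7.66, 6.96 and 8.85, and Ms4a6d, a membrane protein of macrophages at 10.57, 8.59, 7.13 and 8.49. The part of myeloid cells in these results was not tested. The T cell marker Cd3e and the endothelial marker Pecam1 were not above background on any array. In the main processing, no gene of the T and NK, B and plasma, endothelial or erythroid lists changed 2-fold. Of the fibroblast genes 1 of 19 did, of the neural 1 of 10 and of the mast cell genes 1 of 8. Over all genes 4.43% were positive and 4.42% negative. Many of these list members were dim, with 6 of 17 T and NK genes above background on all 4 arrays. With the blank mean subtracted, the T and NK median change was 1.04 in place of 0.10, and the endothelial Plvap changed by -2.59. A lack of change in these cell types therefore cannot be read from the counts. The epithelial marker Epcam was bright on all 4, at 10.48, 9.51, 11.44 and 10.59.

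A contrast that was larger in tumor was uncommon. Of the 9635 genes above background on all 4 arrays, the contrast was larger in tumor by 1 log2 or more in 51, of which 18 were higher and 33 lower in Dclk1+ tumor cells. It was smaller by that amount in 767. The largest gain was in Tff2, a trefoil peptide of gastric mucous neck cells. Its levels were 9.21, 12.84, 5.82 and 5.78, close to background in both normal samples and brightest in Dclk1+ tumor, and its contrast went from -0.04 to 3.63.

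Other gastric-type genes were also higher in tumor, with smaller contrasts. Gkn3, a gastrokine, had levels of 12.39, 13.32, 6.75 and 6.55 and a change of 1.12, and Tff1, another trefoil peptide, 7.37, 8.34, 6.35 and 6.40 and a change of 0.93. The Tff1 change became -0.15 with the local background subtracted. Anxa10, an annexin of gastric epithelium, had a negative change of -2.82 in the main processing, with levels of 9.55, 8.35, 5.84 and 7.46. Of 13 gastric-type genes above background, 2 were positive and 1 negative at 2-fold.

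Genes of general cell upkeep, such as those for ribosomes and respiration, were examined beside the epithelial lists. The median change was 0.21 for 36 cytosolic ribosomal protein genes, of which 4 were positive and 0 negative at 2-fold, and 0.02 for that list when arrays were scaled to equal medians. It was 0.29 for 48 oxidative phosphorylation genes, of which 5 were positive and 2 negative, and -0.01 for that list when arrays were scaled to equal medians. The endoplasmic reticulum secretory list had 5 of 27 genes positive and 1 negative, a slope of 0.012, and a median change of 0.35 that became -0.05 with the local background subtracted. Agr2 and Ern2 led that list, followed by Ddit3, a stress-induced transcription factor at 9.10, 9.66, 11.60 and 10.34 with a change of 1.82.

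**Figure D5:**
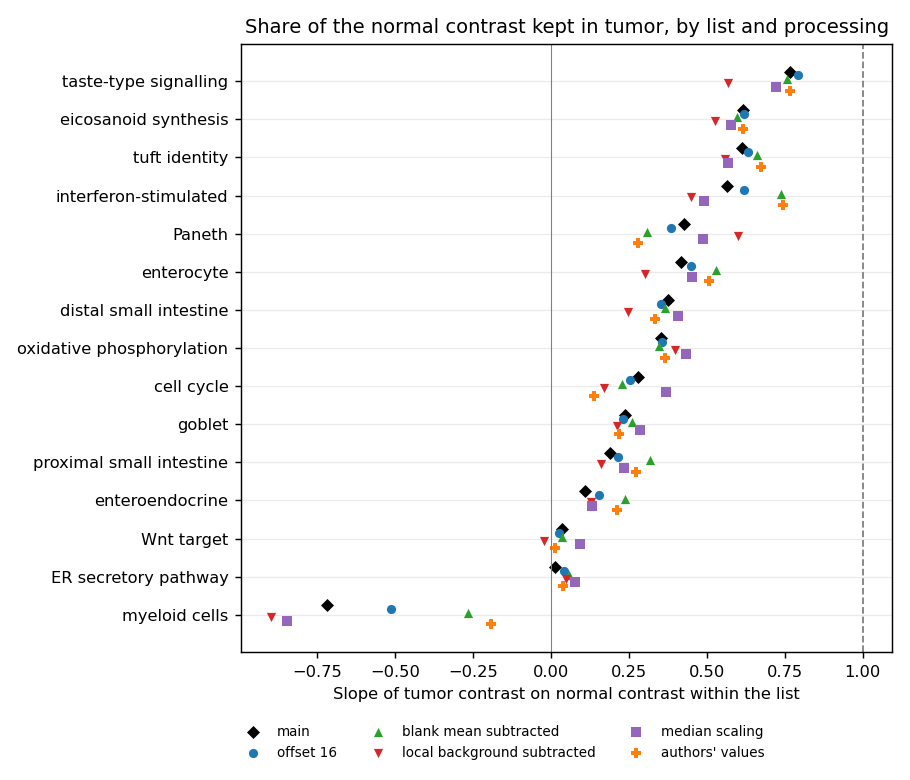
Slope through the origin of the tumor contrast on the normal contrast over the genes of each list (horizontal axis, no unit, 1 meaning equal contrasts), under the main processing and 5 alternatives, each symbol 1 setting. Taste-type, eicosanoid and tuft lists lie to the right of goblet, enteroendocrine, Wnt and secretory lists under the settings shown, and the myeloid list lies below 0 in each.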

How the data were processed

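RNA of 4 sorted mouse intestinal cell samples was hybridised to 1 single-colour array each. Per the file headers, the authors deposited median spot intensity and median local background intensity, joined from scans at 3 gains, with nothing subtracted. Their deposited series table also holds intensity, on a scale not stated in the labels; each column is linear in the spot intensity, less a constant near the blank mean, with a median near 25.

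Here, limma 3.58.1 under R 4.3.3 applied normexp with an offset of 50 to the intensity of all spots. Control, blank and flagged spots (3 in Dclk1- tumor, 1 in Dclk1- normal) were then left out, the arrays were quantile normalized and values put on the log2 scale. Per array, 63.3 to 70.9% of probes exceeded the mean of 2736 blank spots plus 2 SD. Differences of dim genes are compressed by the offset. Symbols came from the platform annotation, updated through RefSeq (GRCm38.p6): 12622 were current, 3947 synonyms of 1 gene, and 59 with several matches and 3 with none kept the array's name. For 229 genes with several probes, the one with the highest mean was used, and probes of a gene differed by an SD of 0.61 log2 in the change of contrast. A flagged spot removed 4 genes.

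Named genes were the 15 most positive and 15 most negative changes among genes above background on all 4 arrays, the 5 largest bounds on each side, Dclk1, and in each of 33 lists up to 4 members with the largest change and 3 with the largest normal contrast. Defining markers, and the genes of the closing observations, are named besides. Members, lists and rules were chosen with earlier results of these data known. The steps were tested on simulated data. Alternatives were an offset of 16, subtraction of the blank or local background, median and 75th percentile scaling, the authors' values, 2 other filters on dim probes, the mean of a gene's probes and a 2-fold threshold.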

Additional observations from a re-analysis of the deposited data

Results flagged for a closer look

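In 8 genes above background on all 4 arrays the tumor and the normal contrast were of opposite sign and each at least 2-fold. With 1 array a group the difference was not tested. Higher in Dclk1+ cells of normal epithelium but lower in those of tumor were Cd52 (change of contrast -3.91), Il1b (-3.46), Ms4a6d (-3.34), Vcam1, a vascular and leukocyte adhesion protein (-2.86), Anxa10 (-2.82) and C1qb (-2.75). In these 6 genes the Dclk1- tumor array was the brightest of the 4. Lower in Dclk1+ cells of normal epithelium but higher in those of tumor were Ern2 (3.82) and Otop3, a proton channel gene of the proximal list (2.86). In both, the Dclk1+ tumor array was the brightest. Another 3 genes outside the rule for named genes had the same kind of reversal: Cyp4f18 (-2.42), Rpl7a (3.21) and Cidea (2.32).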

How the results depend on the processing

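Of 33 list medians, the 7 of 2-fold or more kept their sign under the alternatives run, and 9 smaller ones, at most 0.37 in size, turned sign under at least 1. Of the 169 genes picked by the rule for named genes, not all of them given above, 6 of the 108 with a change of 2-fold or more and 22 of the 61 below it turned sign under at least 1, Dclk1 and Gng13 among the latter. The slope over all genes lay between 0.280 and 0.340 under the alternatives on the same genes or stricter background filters, and was 0.422 among bright genes. The counts of positive and negative 4-fold changes, 183 and 83, were 290 and 205 with an offset of 16, 1102 and 1069 with the blank mean subtracted, 205 and 157 with the local background subtracted, 1022 and 861 in the authors' values, 64 and 35 among bright genes, and 597 and 595 at 2-fold. Without an offset, ratios of dim signals are larger by construction, and the same direction held for 183 of the 183 and 82 of the 83 genes with the blank mean subtracted. With the local background subtracted it held for 180 of the 183 and 81 of the 83. Of these sets, 110 and 45 genes stayed 4-fold or more under that setting. The tuft median was -1.22 (offset 16), -1.67 (blank mean), -0.80 (local background), -1.27 (median scaling), -1.25 (75th percentile), -1.64 (authors' values), -1.39 (above background on all 4 arrays) and -1.45 (bright genes). The enterocyte median was 1.70 (blank mean), 1.12 (local background), 1.34 (median scaling), 1.62 (authors' values), 1.69 (all 4 arrays), 1.24 (mean of probes) and 2.12 (bright genes). The goblet median was 1.41 (local background), 1.79 (median scaling), 1.81 (75th percentile), 2.70 (all 4 arrays) and 2.87 (bright genes). The Paneth median was 2.02 (offset 16), 3.52 (blank mean), 3.52 (authors' values) and 1.66 (all 4 arrays). The enteroendocrine median was 2.14 (offset 16), 2.92 (blank mean), 0.57 (local background), 2.96 (authors' values), 2.68 (all 4 arrays) and 1.51 (blank mean plus 3 SD). Paneth and enteroendocrine lists had under 5 bright genes and no value there. The restriction to bright genes was chosen after seeing the data.

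With the local background subtracted, 6 genes reversed: Manf to -0.30, Prap1 to -1.35, Rpl28 to -0.30, Sdhb to -1.20, Stmn1 to -0.69 and Wif1 to 0.65; the cause was not tested. No paired analysis was possible because each group has 1 array. Signal over background limits dim genes, and 1 array a group leaves the spread between mice unknown.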

Other observations

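The genes in this paragraph were chosen after their values were seen, from the 51 genes with a contrast larger in tumor by 1 log2 or more. Aqp5, a water channel of secretory glands, had log2 levels of 7.77 and 10.10 in the Dclk1- and Dclk1+ samples of tumor, and of 5.94 and 5.95 in those of normal epithelium. Cdh2, N-cadherin, had 7.80, 9.14, 5.80 and 5.77 in the same order. Both were close to background in normal epithelium, present in both tumor samples, and higher in Dclk1+ tumor cells. Spink1, a trypsin inhibitor, had 13.00, 14.87, 15.49 and 15.71, and was bright on all 4 arrays and dimmest in Dclk1- tumor.

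On the other side, Apoe, an apolipoprotein also made by macrophages, had levels of 8.52, 6.47, 7.07 and 7.01. Igfbp7, a secreted binding protein, had 8.56, 6.69, 6.26 and 6.07, and Pf4, a platelet chemokine, 9.26, 7.38, 5.92 and 6.19. These 3 genes were brightest in Dclk1- tumor, as were the fibroblast list's Vim, the intermediate filament vimentin, with 8.50, 6.96, 5.99 and 6.08, and the chemokine Cxcl2 with 8.59, 6.88, 5.88 and 6.14. The myeloid list was also highest in that sample, and its part in these values was not tested.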
